A study of Mus musculus with 35 samples.

Results

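The cytosolic ribosomal protein genes encode the proteins of the ribosome that works in the cytoplasm. They were taken by symbol: Rpl or Rps followed by a digit, plus Rplp0, Rplp1, Rplp2 and Rpsa, without the Rps6k kinases and without pseudogene symbols ending in -ps. One probe set stood for each gene, the brightest of those annotated with a single symbol. This gave 63 of 19938 genes at postnatal day 15 and 50 of 18194 at postnatal day 25, or 73 symbols in all, of which 40 were read at both ages. At day 15 the 63 were 54 core genes, 7 paralogues (Rpl3l, Rpl7l1, Rpl10l, Rpl32l, Rpl39l, Rps4l and Rps27l) and 2 genes that only carry a ribosomal protein's name (Rps19bp1 and Rps23rg1). At day 25 the 50 were 43 core genes, 6 paralogues (Rpl3l, Rpl7l1, Rpl22l1, Rpl39l, Rps4l and Rps27l) and Rps19bp1. All 63 passed the filter on low values at day 15 and 49 of 50 at day 25. The exception was Rps16, whose only single-symbol probe set read 3.32 to 3.76 on the log2 scale, below the filter level of 4.76.

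The study measured whole-testis RNA of male C57BL6 mice on Affymetrix arrays, 1 mouse per array according to the design text. Wild type (Akt1+/+, here WT), heterozygous (Akt1+/-, Het) and homozygous mutant (Akt1-/-, Hom) mice were either unexposed or exposed to 6-N-propylthiouracil (PTU), which blocks thyroid hormone synthesis. Each of the 6 groups has 3 arrays at each age, apart from exposed Hom at day 25 with 2, because a further array was withheld by the authors for quality. A different Affymetrix array type served each age, so levels were not set across ages. The sources used here give neither the deleted part of Akt1 nor the dose and timing of PTU. The deletion is not described as limited to a cell type, so these mice carry it in the whole body as far as the labels say. In whole tissue, fewer cells of a type and less RNA per cell cannot be told apart. Values are the authors' log2 intensities from RMA, and changes are log2 differences ± standard error from limma. A gene is said to rise, fall or differ where its adjusted p, over all genes of that day, is below 0.05.

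Each ribosome joins a small subunit, which reads the messenger RNA, to a large subunit, which makes the peptide bond. Their proteins are made in step with one another. Their messenger RNAs start with a pyrimidine tract through which mTOR, a kinase downstream of Akt, controls translation, so protein output need not follow RNA level. Spermatocytes silence the X chromosome during meiosis. Male germ cells use the autosomal, retrotransposed copies Rpl10l and Rpl39l, whose parents Rpl10 and Rpl39 lie on the X chromosome. Rps4x is a further X-linked gene of the small subunit.

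Promoters are shown for the X-linked parents with their paralogues and for Rps4x and Rpsa, since the results turn on these genes. The sequences are RefSeq's, build GRCm38.p6, from 60 bases before to 30 bases after the annotated start, read along the gene. Capitals mark CCGGAA or its reverse complement TTCCGG, the core letters bound by ETS factors, searched on both strands. The windows lie at chrX:102189362-102189451 (Rps4x, minus strand), chr9:120127706-120127795 (Rpsa, plus), chrX:74270756-74270845 (Rpl10, plus), chr12:66284372-66284461 (Rpl10l, minus), chrX:37085193-37085282 (Rpl39, minus) and chr16:10170168-10170257 (Rpl39l, plus).
Rps4x: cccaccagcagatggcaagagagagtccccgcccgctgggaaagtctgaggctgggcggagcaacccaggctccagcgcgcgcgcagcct
Rpsa: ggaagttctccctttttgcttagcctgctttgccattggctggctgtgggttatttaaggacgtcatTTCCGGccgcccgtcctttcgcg
Rpl10: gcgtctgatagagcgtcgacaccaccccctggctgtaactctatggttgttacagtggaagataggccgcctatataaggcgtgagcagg
Rpl10l: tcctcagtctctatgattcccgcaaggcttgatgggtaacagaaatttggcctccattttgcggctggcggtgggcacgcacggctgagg
Rpl39: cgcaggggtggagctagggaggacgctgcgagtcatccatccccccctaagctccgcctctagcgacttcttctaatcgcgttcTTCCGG
Rpl39l: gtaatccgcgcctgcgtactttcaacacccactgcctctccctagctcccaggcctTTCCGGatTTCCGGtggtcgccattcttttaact
These letters occurred 2 times in the Rpl39l window, 1 time in each of the Rpl39 and Rpsa windows, and not in the other windows printed. Over the full promoter window of 300 bases, 30 of 60 promoters of 52 core genes held them, against 14.9% of all 32851 promoters. A second string, CTTTCC or its reverse complement, was in 45.0% of core promoters and 26.6% of all. A match is a description of the letters and shows no binding.

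Some libraries stand apart. At day 25 both exposed Hom arrays lacked spermatid transcripts. The mean of 20 spermatid genes was 5.20 and 6.33 there, against 10.86 to 11.38 in unexposed Hom. They also carried transcripts of the epididymis, with Spink8 at 12.75 and 12.92 against at most 10.07 in the other arrays of that day. The mean of 10 epididymis, fat and muscle genes was 7.25 to 7.36 there and 5.30 to 5.37 in unexposed Hom, and 6 of the 10 rose. Exposed WT arrays carried some of these transcripts too, at 5.58, 6.29 and 7.10 against 5.19 to 5.25 in unexposed WT, as did exposed Het array 2 at 6.63. The 3' minus 5' signal of beta-actin, a sign of RNA quality, was 0.95 to 1.44 in the 5 Hom arrays and 0.55 to 0.78 in the others. At day 15 the arrays divide into a first set of 12 and a second set of 6 by bright unnamed probe sets. Every WT array was in the first, and Spink8 exceeded 7 in 3 arrays. Akt1 itself read 9.34 to 9.71 in unexposed WT and 9.04 to 9.40 in unexposed Hom at day 15, which overlap, and 9.92 to 10.09 in exposed WT and 9.01 to 9.74 in exposed Hom, which do not. At day 25 WT read 9.38 to 9.55 and Hom 9.28 to 9.53. With the deleted part of the gene unknown, Akt1 gives no check of genotype. The Sertoli cell genes Clu, Wt1 and Sox9 were read on all arrays.

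At day 25 the core genes separated exposed Hom from every other group. The mean of the 42 tested core genes was 12.83 and 13.01 in the 2 exposed Hom arrays and 12.30 to 12.37 in unexposed Hom. It was 12.43 to 12.496 in unexposed WT and 12.46 to 12.60 in exposed WT. It was 12.18 to 12.25 in unexposed Het and 12.39 to 12.44 in exposed Het. Exposed Hom overlapped no other group, and unexposed Het was the lowest group, also without overlap. The spread between arrays of a group was 0.06 (SD). WT groups overlapped each other.

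**Figure D1:**
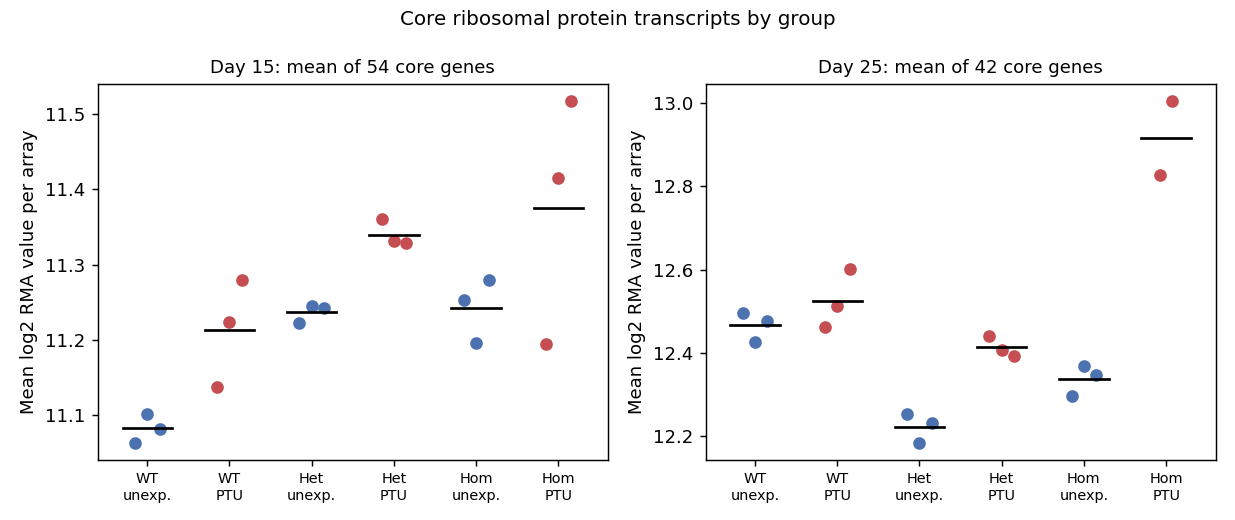
Mean log2 RMA value of the core ribosomal protein genes in each array, by group, at day 15 (54 genes) and day 25 (42 genes). Points are arrays, blue for unexposed and red for PTU, and bars are group means. The axes differ between days and do not start at 0. At day 25 the exposed Hom arrays lie at 12.83 and 13.01, above every other array.

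PTU raised 39 of 42 core genes in Hom testis at day 25 and lowered none that passed. Over all 16305 genes tested, 38.4% rose and 32.8% fell. The median core change was 0.48, against 0.02 over all genes, and 41 of the 42 changes were above 0, compared with 51.3% of all genes. The arrays of the groups did not overlap for 41 core genes upwards and 1 downwards, while 40.4% of all genes had no overlap upwards and 35.6% downwards. Both subunits took part. Of 22 large subunit genes 20 rose (median 0.50), and of 20 small subunit genes 19 rose (median 0.48). A fit with the beta-actin difference as a covariate, chosen after the data were seen, gave 38 genes and a median of 0.46. That difference was 0.95 to 1.31 in unexposed Hom and 1.08 and 1.44 in exposed Hom. Because these overlap, the fit adjusts this comparison little, and the part of RNA quality was not tested. The part of the missing spermatids and of the epididymal RNA in this rise was not tested.

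Among small subunit genes Rps4x had the largest change. Its log2 level was 11.54 in each of the 3 unexposed Hom arrays and 13.41 and 13.73 in the exposed ones, a rise of 2.03 ± 0.16 (adjusted p = 1.64e-07). Rps19, whose human counterpart is mutated in Diamond-Blackfan anaemia, read 12.26 to 12.43 unexposed and 13.41 and 13.95 exposed, a rise of 1.35 ± 0.13 (adjusted p = 6.01e-07). Rpsa, which is both a small subunit protein and the laminin receptor precursor, read 12.31 to 12.47 unexposed and 13.31 and 13.63 exposed. It rose by 1.06 ± 0.12 (adjusted p = 1.98e-06). In all of them the exposed arrays lie clear of the unexposed ones and of every WT and Het array. Rps6, the protein that S6 kinase phosphorylates, read 7.55 to 7.85 unexposed and 8.57 and 8.90 exposed, and rose by 1.03 ± 0.14 (adjusted p = 9.1e-06). Rps3a1 (0.99 ± 0.11) and Rps3 (0.86 ± 0.09) rose as well.

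In the large subunit Rpl10a read 12.95 to 13.08 unexposed and 13.98 and 14.14 exposed, a rise of 1.03 ± 0.10 (adjusted p = 7.75e-07). Rpl12, a protein of the stalk base, read 7.18 to 7.32 unexposed and 8.13 and 8.38 exposed, a rise of 1.01 ± 0.12 (adjusted p = 4.1e-06). Their exposed and unexposed arrays are far apart. Rpl22 (0.89 ± 0.09) and Rpl13a (0.82 ± 0.10) rose too. Rplp0, the stalk protein often used as a reference gene, rose by 0.27 ± 0.11 (adjusted p = 0.033). Its arrays read 13.82 to 14.23 unexposed and 14.32 and 14.37 exposed. Rplp0 and Rps29 are bright (means 14.22 and 14.42, with 15.14 the highest value of that day). Whether bright probe sets understate a change was not tested. Over the 42 core genes, mean level and this change had a correlation of -0.02. The core genes that did not pass were Rps29 (0.14 ± 0.08, adjusted p = 0.127), Rpl39 (0.11 ± 0.09, adjusted p = 0.263) and Rpl27a. Rpl27a was the 1 core gene below 0, at -0.33 ± 0.17 (adjusted p = 0.0879), with 7.67 to 7.86 unexposed and 7.29 and 7.62 exposed. Rpl12, Rpl39, Rpl27a and Rpl14, the last named below, were read from dim probe sets (means 7.36, 6.04, 7.46 and 6.31). Each also has probe sets shared with other symbols, which were left out. Rps6 was read from a dim probe set as well, at 7.46 to 8.90 over the arrays of day 25.

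**Figure D2:**
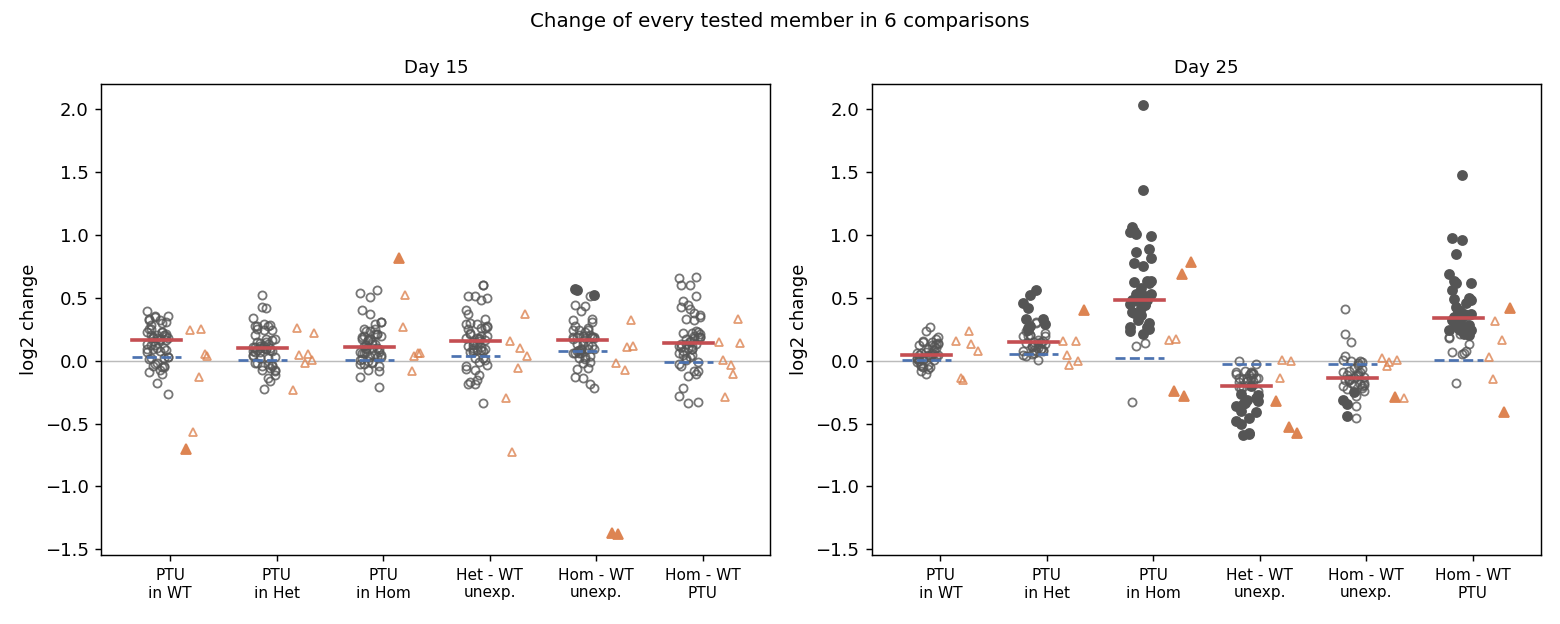
Log2 change of every tested core gene (grey circles) and paralogue (orange triangles) in 6 comparisons at day 15 and day 25. Filled symbols have adjusted p below 0.05 in limma, red lines are core medians and blue dashed lines medians of all genes tested. At day 25, 41 of 42 core genes lie above 0 with PTU in Hom and all 42 in Het, and all 42 lie below 0 for unexposed Het minus WT.

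In Het testis at day 25 PTU raised 10 of 42 core genes and lowered 0, against 11.5% and 7.2% of all genes. The arrays did not overlap for 27 core genes upwards and 0 downwards (26.5% and 14.4% of all genes). All 42 core changes were above 0, as were 59.5% of all genes, and the core median was 0.15 against 0.06. Rps4x again had the largest change, from 11.04 to 11.53 unexposed to 11.70 to 11.95 exposed, a rise of 0.57 ± 0.14 (adjusted p = 0.0133). These arrays do not overlap. Rpl12 (0.52 ± 0.11), Rpl10a (0.46 ± 0.09) and Rps6 (0.42 ± 0.12, adjusted p = 0.028) rose, as did Rpsa, Rpl22, Rps3a1, Rps3, Rpl19 and Rpl6 (0.24 to 0.33). All 10 were also among the 39 of 42 core genes that rose in Hom. That list holds nearly every core gene, so the overlap was close to given. Of the 20 spermatid genes 19 fell here (median -1.82), which moves with this result, and its part was not tested. The count of 10 becomes 2 without unexposed array 2, 3 without unexposed array 3 or exposed array 2, and 5 without exposed array 1 or 3.

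In WT testis at day 25 limma called 0 core genes with PTU, and 0% of all genes. At unadjusted p under 0.05 were 1 core gene upwards and 0 downwards, and 3.83% and 2.17% of all genes. Groups were without overlap for 12 upwards and 2 downwards (12% and 8.5% of all genes). The core median was 0.05, with 32 of 42 above 0. Rpl22 (0.17 ± 0.08, adjusted p = 0.816), Rps3a1 (0.19 ± 0.10, adjusted p = 0.842) and Rpl37 (0.24 ± 0.12, adjusted p = 0.843) had the smallest p. Rps4x had the largest value here too, 0.27 ± 0.14 (adjusted p = 0.853), with 11.74 to 11.91 unexposed and 11.87 to 12.35 exposed, which overlap. The epididymis, fat and muscle genes moved with this comparison in their array means, with Car3 at 6.64 to 10.76 exposed and 4.19 to 4.68 unexposed, although 0 of the 10 passed. Their part was not tested. The sample numbers were taken to pair these arrays, and with them as a block the count stays 0.

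The difference between the PTU changes in Hom and in WT, tested as an interaction, passed for 30 of 42 core genes upwards and 0 downwards, against 33.1% and 26.3% of all genes. The median was 0.48. Rps4x (1.76 ± 0.21, adjusted p = 2.47e-05), Rps19 (1.32 ± 0.17), Rps6 (1.08 ± 0.18), Rpl10a (1.00 ± 0.14) and Rpl12 (1.00 ± 0.16) had the largest values. Next came Rpsa (0.93 ± 0.16), Rps3a1 (0.80 ± 0.14), Rpl14 (0.80 ± 0.25, adjusted p = 0.0117), Rpl22 (0.72 ± 0.12) and Rpl6 (0.71 ± 0.11). Averaged over the 3 genotypes, PTU raised 38 core genes and lowered 0, against 36.3% and 27.6% of all, with a median of 0.23. Over WT and Het alone, a setting chosen after the data were seen, 6 passed with a median of 0.11.

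Without PTU at day 25, Het testis had 17 of 42 core genes lower than WT and 0 higher, against 14.3% and 8.32% of all genes. The arrays did not overlap for 32 downwards and 0 upwards (25.7% and 18% of all genes). All 42 changes were below 0 (median -0.20, all genes -0.03). This comparison shares the unexposed Het arrays with the PTU comparison in Het. Rpl12 (-0.59 ± 0.11, adjusted p = 0.00345), Rps4x (-0.58 ± 0.14), Rpl14 (-0.58 ± 0.16, adjusted p = 0.0223), Rps6 (-0.51 ± 0.12, adjusted p = 0.0103) and Rpl10a (-0.48 ± 0.09) were lower. Rps19 (-0.46 ± 0.12, adjusted p = 0.0129), Rpl22 (-0.41 ± 0.08), Rpl19 (-0.40 ± 0.08), Rps10 (-0.36 ± 0.07) and Rpl39 (-0.35 ± 0.08) were lower as well. Rpl10a read 13.26 to 13.40 in WT and 12.77 to 13.05 in Het, without overlap. Of the spermatid genes 16 of 20 were higher in Het (median 1.56), and their part was not tested. Spermatid means were 8.97 to 10.32 in WT and 10.75 to 11.94 in Het. The count of 17 becomes 11 without WT array 1, 8 without WT array 3 and 9 without Het array 2.

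In unexposed Hom 4 core genes were lower than in WT and 0 higher, against 7.32% and 5.35% of all genes, a share near the background. They were Rps6 (-0.44 ± 0.12, adjusted p = 0.0308), Rpl19 (-0.35 ± 0.08, adjusted p = 0.0166), Rpl10a (-0.32 ± 0.09, adjusted p = 0.0356) and Rps9 (-0.25 ± 0.07, adjusted p = 0.0374). Arrays of the groups lay apart for 22 downwards and 2 upwards (21.3% and 16.8% of all genes). The median was -0.14. Rps6 read 7.997 to 8.31 in WT and 7.55 to 7.85 in Hom. Its arrays do not overlap. The count becomes 0 without WT array 3 or Hom array 3, 1 without Hom array 1, 2 without WT array 1 or 2 or Hom array 2, and 8 without either exposed Hom array, which enter this comparison through the estimate of spread. It is 1 with the beta-actin covariate, where the median is -0.26. Spermatid genes were higher here as well (10 of 20, median 1.34). Among exposed mice, 32 of 42 core genes were higher in Hom than in WT and 0 lower, against 32.7% and 28.4% of all genes, with a median of 0.34. Groups were without overlap for 38 upwards and 1 downwards (38.1% and 36% of all genes). Rps4x (1.48 ± 0.16), Rpsa (0.97 ± 0.12), Rps19 (0.96 ± 0.13), Rpl12 (0.85 ± 0.12), Rpl10a (0.69 ± 0.10) and Rps6 (0.64 ± 0.14) had the largest differences. With the beta-actin covariate 1 core gene passed (median 0.16), and without exposed Hom array 2 the count is 19. That covariate was 0.95 to 1.44 in the Hom arrays and 0.55 to 0.78 in the others. In both Hom minus WT comparisons it cannot be told apart from genotype.

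**Figure D3:**
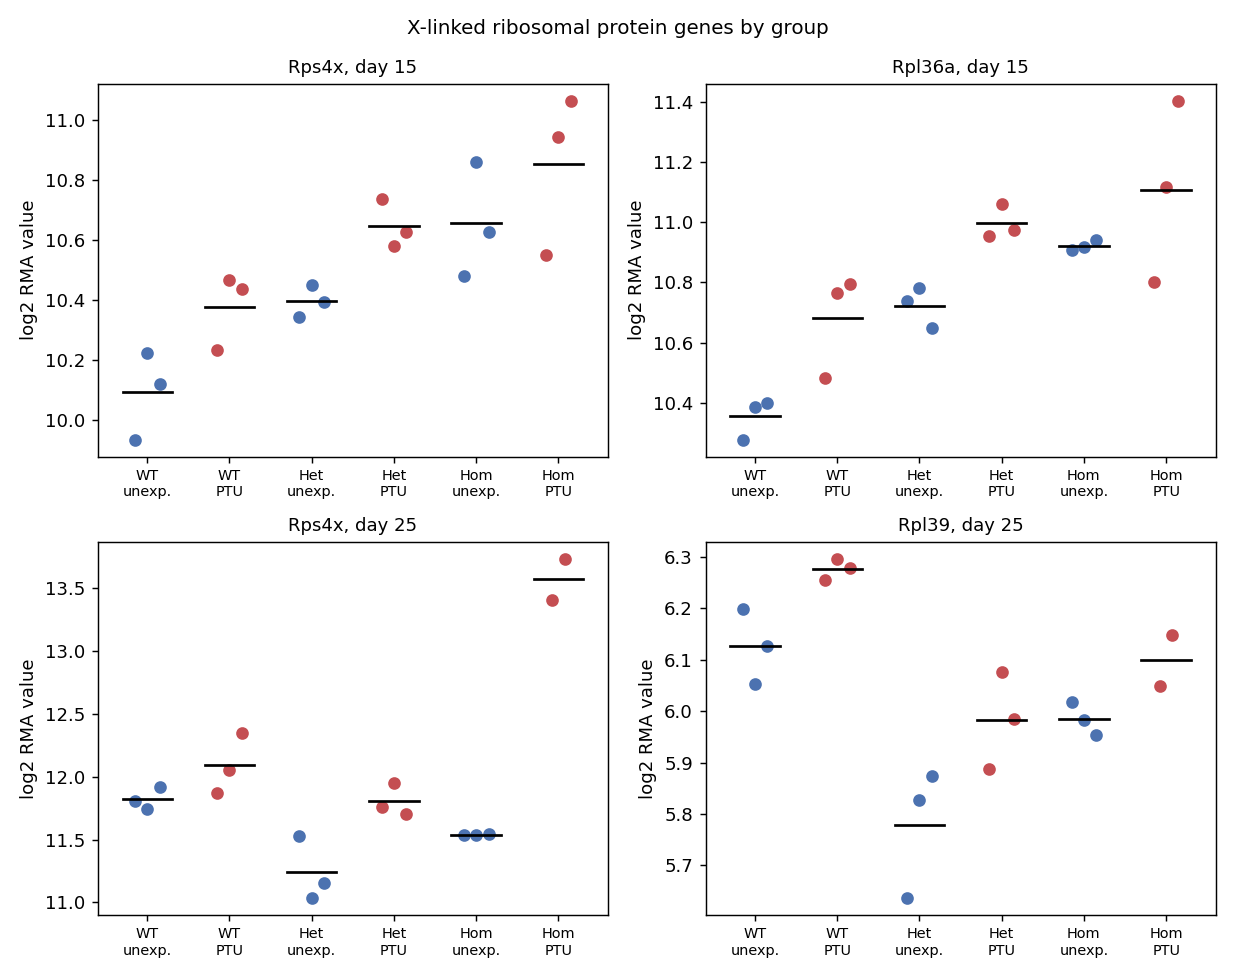
Log2 RMA values of X-linked ribosomal protein genes in each array, Rps4x and Rpl36a at day 15 and Rps4x and Rpl39 at day 25. Points are arrays, blue for unexposed and red for PTU, and bars are group means. Axes differ between panels and do not start at 0. Rps4x at day 25 lies at 13.41 and 13.73 in exposed Hom.

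Rps4x is an X-linked gene, and the others among the members are Rpl10, Rpl36a and Rpl39. At day 25 Rps4x ranked 1 of 42 core genes in the PTU change of WT, of Het and of Hom, which use separate arrays, and 41 of 42 for unexposed Het minus WT. Its second probe set, at a mean of 5.94, gave -0.25 ± 0.14 for PTU in Hom and did not pass. With the mean of both probe sets the gene no longer passes for PTU in Het (0.15) or for unexposed Het minus WT (-0.13). Rpl39, which lines the exit tunnel of the large subunit, read 6.05 and 6.15 in exposed Hom against 5.95 to 6.02 in unexposed Hom, and 6.05 to 6.20 in unexposed WT. Its interaction was -0.04 ± 0.12 (adjusted p = 0.814). Rpl10 and Rpl36a are not analysed here at day 25. Probe sets disagreed in direction for 5 of the 22 core genes with several at that age in PTU in Hom. Of 95 single-symbol probe sets 80 rose and 3 fell. The share over all probe sets of that fit was not counted. Over genes it was 38.4% upwards and 32.8% downwards. For Rps3 and Rps24 a dim probe set fell (-0.82 ± 0.18 and -0.56 ± 0.17) while others rose.

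At day 15 core changes were small. The mean of the 54 core genes was 11.06 to 11.10 in unexposed WT and 11.14 to 11.28 in exposed WT. It was 11.22 to 11.25 in unexposed Het and 11.33 to 11.36 in exposed Het, and 11.20 to 11.28 in unexposed Hom and 11.19 to 11.52 in exposed Hom. Unexposed WT lay below all other groups, and exposed Hom overlapped 4 others. The spread within groups was 0.08. By array set the means were 11.06 to 11.36 in the first and 11.24 to 11.52 in the second.

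PTU in WT at day 15 called 0 core genes, while 6.53% of all genes rose and 8.75% fell. At unadjusted p under 0.05 were 9 core genes upwards and 1 downwards of the 54, against 15.3% and 13.8% of all. Arrays of the groups lay apart for 24 and 1 (26.4% and 18.7% of all). The median was 0.16 against 0.03. Rps2 (0.33 ± 0.11, adjusted p = 0.0585), Rpl36a (0.33 ± 0.12, adjusted p = 0.0755) and Rpl10a (0.23 ± 0.09, adjusted p = 0.0799) had the smallest p. The count is 7 where the fit blocks on the array sets and 11 in the first set alone. It is 3 without exposed Hom array 1, 2 without exposed Hom array 3, and 1 without exposed WT array 1, exposed Het array 3 or unexposed Hom array 1 or 2. In the Het comparison with PTU limma also called 0, against 0.192% and 0.377% of all genes. There 9 core genes lay upwards and 0 downwards at unadjusted p under 0.05 (5.99% and 7.56% of all), and the arrays did not overlap for 8 and 2 (6.61% and 8.62%). The median was 0.10. The smallest p were those of Rps21 (0.52 ± 0.14, adjusted p = 0.0907), Rplp2 (0.43 ± 0.16, adjusted p = 0.234) and Rpl22 (0.29 ± 0.11, adjusted p = 0.263). The arrays were taken to pair by number, and the block leaves 0, while leaving out exposed Het array 3 gives 2.

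In Hom testis at day 15 PTU again called 0 core genes, against 0.586% and 4.37% of all, and 4.96% in either direction. At unadjusted p under 0.05 lay 9 upwards and 0 downwards (9.32% and 13.2% of all), and the arrays did not overlap for 6 and 0 (9.03% and 11.4%). The median was 0.11 over all arrays and -0.00045 in the first set alone, where a single exposed Hom array remains. Rpl36 (0.37 ± 0.11, adjusted p = 0.0642), Rps19 (0.51 ± 0.16, adjusted p = 0.08) and Rpl13 (0.30 ± 0.10, adjusted p = 0.0868) had the smallest p. Without exposed Hom array 1 the count is 9. The exposed Hom arrays left then are both in the second array set, while unexposed Hom arrays 1 and 2 are in the first. Averaged over genotypes, PTU raised 7 of 54 core genes and lowered 0, against 3.88% and 8.09% of all genes. They were Rps21 (0.34 ± 0.08, adjusted p = 0.00832), Rps12 (0.28 ± 0.07, adjusted p = 0.0164), Rpl36a (0.26 ± 0.07), Rps15a (0.26 ± 0.07), Rps4x (0.24 ± 0.07), Rpl22 (0.24 ± 0.06) and Rpl6 (0.18 ± 0.06, adjusted p = 0.0433). In all 49 of 54 core changes were above 0, against 55.1% of all genes. Markers of other cells moved with PTU at this age. Of 14 macrophage genes 12 fell on average and 0 rose, 10 fell in WT, 5 in Het and 5 in Hom. Of 25 pachytene genes 15 fell in WT, 0 in Het and 0 in Hom. The group mean of these genes was 9.66 unexposed and 8.28 exposed in WT, 8.75 and 8.21 in Het, and 7.46 and 8.19 in Hom. The part of the macrophage and pachytene genes in the core changes was not tested. The count of 7 core genes becomes 14 where the fit blocks on the array sets. It is 0 in the first set alone, and also 0 when the 3 arrays with Spink8 above 7 are left out. It is 16 without exposed Hom array 1, 3 without exposed WT array 2, and 4 without unexposed WT array 3, exposed WT array 3, exposed Het array 1 or exposed Hom array 3.

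Unexposed Hom testis had 3 core genes above WT at day 15 and 0 below, against 14.6% and 14.2% of all genes (28.9% either way). The arrays did not overlap for 20 upwards and 1 downwards (28.2% and 20.7% of all). Of 209 single-symbol probe sets of core genes 8 were higher past the threshold and 0 lower. The share over all probe sets of that fit was not counted. Probe sets disagreed in direction for 4 of the 38 core genes with several. Rps3, which lies at the entry of the messenger RNA channel, read 10.76 to 10.77 in WT and 11.13 to 11.40 in Hom (0.52 ± 0.15, adjusted p = 0.0173). Rpl36a read 10.28 to 10.40 in WT and 10.91 to 10.94 in Hom (0.57 ± 0.12, adjusted p = 0.00199). Rps4x read 9.94 to 10.22 and 10.48 to 10.86 (0.56 ± 0.13, adjusted p = 0.00326). None of these overlap. Rps3 does not pass without WT array 1, Hom array 1 or 3, or the Spink8 arrays. By symbol, Rpl36a and Rps4x are 2 of the 3 X-linked core genes read. The third, Rpl10, gave 0.25 ± 0.16 (adjusted p = 0.266), with 12.60 to 12.78 in WT and 12.66 to 13.23 in Hom. Each was read from the brightest of its single-symbol probe sets, of which Rpl36a has 2, Rps4x 5 and Rpl10 6. Whether these brightest probe sets read the X-linked gene or a copy elsewhere in the genome was not tested. Pachytene spermatocyte genes moved with this comparison: 22 of 25 were lower (median -2.12), and their part was not tested. The count is 6 where the fit blocks on the array sets and 8 in the first set alone. It is also 8 without unexposed Hom array 2 or exposed Hom array 1, and 6 without exposed Hom array 3.

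For Hom minus WT among exposed mice at day 15 limma called 0 core genes, and 0% of all genes, with 16 upwards and 2 downwards at unadjusted p under 0.05, against 12.7% and 12.8% of all. The arrays did not overlap for 9 and 3 (11.9% and 13.4%). Rpl27 (0.38 ± 0.09, adjusted p = 0.0756), Rps19 (0.60 ± 0.16, adjusted p = 0.0822) and Rpl36 (0.41 ± 0.11, adjusted p = 0.0822) had the smallest p. Here sample numbers were taken to pair the arrays, and with the number as a replicate block over all groups 10 core genes pass. Without exposed Hom array 1 the count is 21. Exposed Hom then lies wholly in the second array set and WT in the first, so genotype and array set cannot be told apart. In the first set alone the median goes from 0.14 to -0.0052. For unexposed Het minus WT limma called 0 as well, against 0.718% and 3.23% of all genes, and 3.95% in either direction. At unadjusted p under 0.05 lay 14 upwards and 1 downwards (10.5% and 11.6% of all), and the arrays did not overlap for 28 and 0 (16.9% and 16.1%). The median was 0.15. Rps3 (0.50 ± 0.15, adjusted p = 0.0758), Rps28 (0.48 ± 0.15, adjusted p = 0.0864) and Rpsa (0.60 ± 0.19, adjusted p = 0.0886) had the smallest p. Array set moves with this comparison, since unexposed Het arrays 2 and 3 are in the second set. Rpsa read 11.15 to 11.30 in WT, 11.45 in Het array 1, and 11.999 and 12.05 in Het arrays 2 and 3. Where the fit blocks on the array sets the values are 0.29 for Rps3, 0.22 for Rps28 and 0.29 for Rpsa, and the core median is 0.095. These arrays were also taken to pair, and the block gives 4. Without unexposed Het array 1 the count is 4, without exposed Hom array 1 it is 3, and without exposed Hom array 3 it is 2.

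The interaction at day 15 passed for 2 core genes upwards and 0 downwards, against 8.23% and 8.13% of all genes. Rpl13 read 12.09 to 12.16 and 11.75 to 11.94 in unexposed and exposed WT, but 11.69 to 12.10 and 12.11 to 12.33 in unexposed and exposed Hom (0.57 ± 0.14, adjusted p = 0.0116). Rpl36 had the second interaction that passed (0.55 ± 0.16, adjusted p = 0.0249). Neither passes without the Spink8 arrays or in the first array set alone, where 6 other core genes do. The count is 1 without unexposed WT array 1 or 3, exposed WT array 1 or 2, unexposed Hom array 1 or exposed Hom array 2. It is 4 without exposed Het array 3 or unexposed Hom array 3 and 5 without exposed Hom array 1.

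The changes of 2 germ cell paralogues in unexposed Hom at day 15 lay outside the range of the core genes there (-0.22 to 0.57). Rpl10l, on chromosome 12, read 11.08, 11.004 and 10.83 in unexposed WT and 9.67, 9.22 and 9.93 in unexposed Hom, lower by -1.37 ± 0.22 (adjusted p = 0.000161). With PTU it read 10.64, 10.10 and 10.07 in WT, a fall of -0.70 ± 0.22 (adjusted p = 0.0364). In exposed Hom it read 10.60, 10.34 and 10.32, a rise of 0.81 ± 0.22 (adjusted p = 0.0387). WT and Hom groups thus lie apart when unexposed and overlap when exposed. The interaction was 1.52 ± 0.31 (adjusted p = 0.00353). The rise in Hom does not pass when any 1 of these 8 arrays is left out: unexposed WT 1, 2 or 3, unexposed Hom 1 or 2, or exposed Hom 1, 2 or 3 (0.62 to 0.86). Nor does it pass where the fit blocks on the array sets (0.75). The fall in WT does not pass without any of the 3 unexposed arrays or exposed array 2 or 3 (-0.60 to -0.77). These PTU changes share the unexposed arrays with the genotype difference.

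Rpl39l, on chromosome 16, read 10.14, 9.80 and 9.96 in unexposed WT and 8.63, 8.54 and 8.59 in unexposed Hom, lower by -1.38 ± 0.20 (adjusted p = 7.49e-05). Exposed WT read 9.67, 9.27 and 9.25 (-0.57 ± 0.20, adjusted p = 0.0629), and exposed Hom 9.32, 9.05 and 8.97 (0.52 ± 0.20, adjusted p = 0.133). Neither PTU change passed, and the arrays do not overlap in either genotype. The change in WT passes where the fit blocks on the array sets (adjusted p = 0.0393). The interaction was 1.09 ± 0.28 (adjusted p = 0.0147), and it does not pass without the Spink8 arrays (1.30). Unexposed Het lay between, at 9.64, 8.74 and 9.35 (-0.72 ± 0.20 against WT, adjusted p = 0.0511). The parent of Rpl39l was not read on this array. The parent Rpl10, read from the brightest of its 6 single-symbol probe sets, did not pass in any of the 8 comparisons of that day. Whether that probe set reads the X-linked gene or a copy was not tested.

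Over the 18 arrays of day 15 the genes most like Rpl39l by Pearson correlation were Tctex1d2 (0.962), Gtsf1 (0.961), Cklf (0.955), Bcap29 (0.953) and Lancl1 (0.943). The median correlation of Rpl39l with the core genes was -0.36. Those most like Rpl10l were Dync2li1 (0.968), Psmc3ip (0.954), Spa17 (0.954), Sephs2 (0.952) and Cks2 (0.947), with a core median of -0.20. The arrays share groups, so these values describe the pattern over groups. The mean of 25 pachytene genes was 9.48 to 9.88 in unexposed WT, 7.99 to 8.82 in exposed WT, 7.12 to 7.89 in unexposed Hom and 7.64 to 8.60 in exposed Hom.

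**Figure D4:**
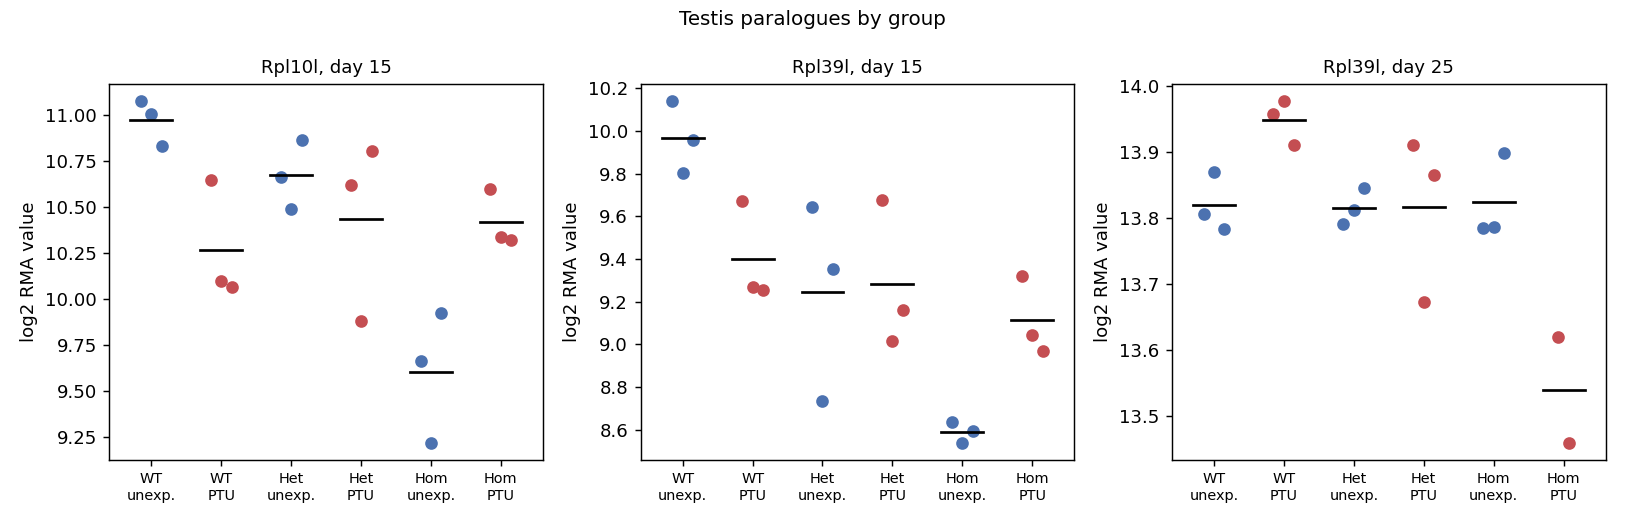
Log2 RMA values of Rpl10l and Rpl39l in each array at day 15 and of Rpl39l at day 25. Points are arrays, blue for unexposed and red for PTU, and bars are group means. Axes differ between panels and do not start at 0. At day 15 unexposed Hom lies lowest for both genes, and at day 25 exposed Hom lies lowest for Rpl39l, at 13.62 and 13.46.

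At day 25 Rpl39l moved against the core genes in exposed Hom. It read 13.78 to 13.87 in unexposed WT, 13.91 to 13.98 in exposed WT, 13.79 to 13.90 in unexposed Hom, and 13.62 and 13.46 in exposed Hom. The last group lies below all others. PTU lowered it in Hom by -0.28 ± 0.09 (adjusted p = 0.00916), and exposed Hom was below exposed WT by -0.41 ± 0.09 (adjusted p = 0.000922). The interaction was -0.41 ± 0.12 (adjusted p = 0.00731). The PTU change in Hom does not pass without exposed Hom array 2 (-0.20), with array weights or in a fit of these 2 groups alone. The genes most like it over 17 arrays were Mblac1 (0.942), Sass6 (0.940), Bcap29 (0.937), Amn1 (0.937) and Clhc1 (0.936), and its median correlation with core genes was -0.52.

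The other paralogues differed among themselves. Rpl7l1, a ribosome biogenesis protein, read 9.77 to 9.83 in unexposed Hom and 10.39 and 10.78 in exposed Hom (0.79 ± 0.11, adjusted p = 1.16e-05). It also rose with PTU in Het (0.40 ± 0.10, adjusted p = 0.012) and was lower in unexposed Het than WT (-0.57 ± 0.10, adjusted p = 0.0028). Rps27l, a target of p53, rose with PTU in Hom at day 25 (0.69 ± 0.10, adjusted p = 1.75e-05) and on average at day 15 (0.26 ± 0.07, adjusted p = 0.0277). It was lower at day 25 in unexposed Het (-0.52 ± 0.09) and unexposed Hom (-0.29 ± 0.09, adjusted p = 0.0428). Rps4l, annotated by RefSeq as a transcribed pseudogene, fell with PTU in Hom (-0.24 ± 0.08, adjusted p = 0.0171). Rpl22l1 was lower in unexposed Het (-0.32 ± 0.10, adjusted p = 0.0281) and rose on average with PTU (0.16 ± 0.06, adjusted p = 0.0272) at day 25. With PTU in Hom, where its parent Rpl22 rose, Rpl22l1 gave 0.16 ± 0.11 (adjusted p = 0.19). Rpl3l, the muscle copy, stayed between 4.59 and 5.17 at day 25 and 5.21 and 5.86 at day 15 and passed in no comparison, nor did Rpl32l. Of the 2 genes set apart, Rps19bp1 rose with PTU in Hom at day 25 (0.26 ± 0.08, adjusted p = 0.0088), and Rps23rg1 passed in none.

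Other genes of the pathway are given for PTU in Hom at day 25, where 38.4% of all genes rose and 32.8% fell. Of 43 genes of ribosome assembly 25 rose and 7 fell (median 0.48). The nucleolar proteins Ncl (1.53 ± 0.13) and Nop56 (1.61 ± 0.16) and the assembly factor Nip7 (1.34 ± 0.13) rose. Of 34 translation factor genes 16 rose and 4 fell (median 0.18). Named by smallest p, not by size, are the X-linked Eif2s3x (1.43 ± 0.12), the cap-complex gene Eif4b (1.08 ± 0.11) and the Y-linked Eif2s3y (1.24 ± 0.13). Of 20 S6 kinase and mTOR genes 13 rose and 3 fell (median 0.50), among them the kinase Rps6ka6 (1.61 ± 0.11), the mTOR activator Rheb (1.25 ± 0.13) and Rictor (1.03 ± 0.12). Of 76 mitochondrial ribosomal protein genes 43 rose and 10 fell (median 0.29). Of 4 further genes tied to the cytosolic ribosome 3 rose and 1 fell, with Fau, made as a fusion with a small subunit protein, at 0.53 ± 0.09.

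Spermatogonial genes rose beside them (15 of 16, median 1.18), as did 12 of 17 Sertoli genes (median 0.72), while 23 of 25 pachytene and 20 of 20 spermatid genes fell (medians -1.55 and -5.51). The arrays' means of the spermatogonial genes were 9.75 and 10.17 in exposed Hom and 8.81 to 8.92 in unexposed Hom. Macrophage genes moved as well, with 7 of 14 lower and 1 higher, and array means of 7.12 and 7.14 against 7.56 to 7.99. Of 8 Leydig cell genes 3 fell and 1 rose, with array means of 8.23 and 8.55 against 9.09 to 9.59. Among them Cyp11a1, the first enzyme of steroid synthesis, read 6.57 and 5.47 in exposed Hom and 10.25 to 11.36 in unexposed Hom. The part of these cell types in the change of the ribosomal protein genes was not tested. For unexposed Het minus WT at day 25, 15 of 43 assembly genes were lower and 1 higher, and 39 of 76 mitochondrial ribosomal protein genes were lower and 0 higher, against 14.3% and 8.32% of all genes. Dkc1, of the pseudouridine complex, was lower by -0.94 ± 0.14. With PTU in Het 14 of the 43 assembly genes rose and 0 fell, against 11.5% and 7.2% of all genes, and Dkc1 rose by 0.86 ± 0.14. For unexposed Hom minus WT at day 15, 5 of the 43 assembly genes were higher and 5 lower, no more than the 14.6% and 14.2% of all genes.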

How the data were processed

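Values are log2 intensities that the authors made with RMA and deposited, per the labels and the submitters' processing notes. Those notes name no version of RMA. The values lie between 2.19 and 14.95 at day 15 (35556 probe sets, 18 arrays) and between 2.81 and 15.14 at day 25 (45101 probe sets, 17 arrays), and were used as deposited. Of the probe sets 21789 and 34958 have 1 symbol in GEO's platform annotation, 1621 and 932 several, and 12146 and 9211 none. Only those with 1 symbol were used. Among members, 19 at day 15 and 15 at day 25 also have probe sets shared with other symbols, and at day 25 32 of the 50 chosen probe sets have suffixes (_x_at, _s_at or _a_at) that can mark cross-hybridization with near-identical copies. Ribosomal protein pseudogenes could add signal in this way. At day 15, 38 of the 54 core genes have several single-symbol probe sets. Whether the brightest reads the named gene or a copy elsewhere in the genome was not tested.

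A gene was tested where at least 2 arrays exceeded the day's 25th percentile (5.56 and 4.76), 16710 at day 15 and 16305 at day 25. Each day was fitted with limma 3.58.1 in R 4.3.3 on its 6 group means, with eBayes, and p-values were adjusted by Benjamini-Hochberg over all genes of a comparison at a threshold of 0.05. There are 8 comparisons a day: PTU in each genotype and averaged, Hom minus WT in unexposed and in exposed mice, unexposed Het minus WT, and the interaction of PTU with Hom. The fit was tested on simulated data. The number of arrays limits the precision.

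Every paralogue with its parent, the X-linked members, Rps6, Rplp0, Rpsa and Rps19bp1 are named. So are up to 10 largest rises and falls among core genes that pass, the 3 smallest p where fewer than 3 pass, the 3 smallest p of passing pathway genes, and the 5 genes most like Rpl39l and Rpl10l. The rule also names the 3 brightest and dimmest core genes, left out because levels of different probe sets are not comparable. Single genes beyond these were named after their values were seen. The members, lists, comparisons and first alternatives were chosen with earlier results of these data known. The sample numbers were taken to pair the samples where all 3 same-number correlations of residuals exceeded 0.1. This held for PTU in Het (0.391 to 0.444), Hom minus WT exposed (0.141 to 0.557) and unexposed Het minus WT (0.181 to 0.374) at day 15, and for PTU in WT at day 25 (0.233 to 0.396). It did not hold in the other comparisons. The values were -0.252 to -0.207 for PTU in Hom at day 15 and -0.514 to 0.206 for unexposed Het minus WT at day 25. The labels give sample numbers but state no pairing, and the replicate block was fitted over all groups of a day. No 2 arrays of day 15 are identical (highest correlation 0.993), nor of day 25 (0.998). Nothing but the design text says that arrays are separate animals, so the p-values measure the spread between these arrays. Alternatives were other filters, probe set rules, quantile normalization, the groups compared alone, array weights, the replicate block, array set, and leaving out arrays.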

Additional observations from a re-analysis of the deposited data

Results flagged for a closer look

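For the members below the PTU change in Hom differed from that in WT by the interaction test of limma, given as a log2 difference. Groups of 3 arrays are too small for a search for single outlying arrays. At day 15 the difference was 1.52 for Rpl10l, 1.09 for Rpl39l, 0.57 for Rpl13 and 0.55 for Rpl36. For the 2 paralogues the PTU changes have opposite signs in the 2 genotypes; 18 of 25 pachytene genes also had an interaction above 0 that passed, and their part was not tested.

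At day 25 it was 1.76 for Rps4x, 1.32 for Rps19, 1.08 for Rps6, 1.00 for Rpl10a, 1.00 for Rpl12, 0.93 for Rpsa, 0.80 for Rps3a1, 0.80 for Rpl14, 0.72 for Rpl22 and 0.71 for Rpl6. Among the paralogues it was 0.71 for Rpl7l1, 0.45 for Rps27l and -0.41 for Rpl39l, and for Rps19bp1 it was 0.28. All of these use the 2 exposed Hom arrays, which also lack spermatid transcripts and carry epididymal ones, and the part of either was not tested.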

How the results depend on the processing

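The counts below are core genes that pass, with medians as log2 changes. At day 15 array weights gave 26 (PTU in WT, 0 as reported), 1 (PTU in Het, 0), 6 (PTU in Hom, 0), 19 (PTU averaged, 7), 14 (unexposed Hom minus WT, 3), 9 (exposed Hom minus WT, 0), 17 (unexposed Het minus WT, 0) and 8 (interaction, 2). The 50th percentile filter gave 1 for PTU in WT, 1 for PTU in Hom and 6 for unexposed Hom minus WT. The groups compared alone gave 12 for PTU in WT, 5 for unexposed Hom minus WT and 4 for unexposed Het minus WT. The replicate block gave 1 for PTU in WT, 3 for PTU in Hom, 5 for unexposed Hom minus WT, 10 for exposed Hom minus WT and 4 for unexposed Het minus WT. Blocking on the array sets gave 7, 14 and 6 for PTU in WT, PTU averaged and unexposed Hom minus WT. Within the first set, chosen after the data were seen, these were 11, 0 and 8, the interaction 6 (median -0.17), and the medians of PTU in Hom and exposed Hom minus WT -0.00045 and -0.0052. Without the Spink8 arrays PTU averaged and the interaction gave 0. Leaving out exposed Hom array 1 puts exposed Hom wholly in the second array set. Leaving out 1 array at a time gave 0 to 3 (PTU in WT), 0 to 2 (PTU in Het), 0 to 9 (PTU in Hom, median 0.043 to 0.22), 3 to 16 (PTU averaged), 2 to 8 (unexposed Hom minus WT), 0 to 21 (exposed Hom minus WT, median 0.072 to 0.24), 0 to 4 (unexposed Het minus WT) and 1 to 5 (interaction, median -0.091 to 0.066). At day 25 unexposed Hom minus WT (4, median -0.14) gave 7 with the 50th percentile filter, 7 with the mean of all probe sets, 10 with weights, 2 with the replicate block, 8 without both exposed Hom arrays, 1 (median -0.26) with the beta-actin covariate, and a median of -0.077 after quantile normalization. Exposed Hom minus WT (32, median 0.34) gave 18 with weights and 1 (0.16) with beta-actin. In both Hom minus WT comparisons the beta-actin difference cannot be told apart from genotype. PTU in Het (10) gave 6 with the replicate block, and PTU averaged (38, 0.23) gave 6 (0.11) over WT and Het only. Quantile normalization lowered the medians of PTU in Hom to 0.37 and of the interaction to 0.37. Leaving out 1 array gave 2 to 14 (PTU in Het), 32 to 40 (PTU in Hom, median 0.41 to 0.57), 0 to 8 (unexposed Hom minus WT), 19 to 33 (exposed Hom minus WT, 0.26 to 0.42), 8 to 18 (unexposed Het minus WT) and 25 to 32 (interaction, 0.40 to 0.52). The beta-actin covariate, the fit without both exposed Hom arrays and the average over WT and Het were also chosen after the data were seen. The causes were not tested. Of the 472 results on named members, 12203 values under alternatives kept side and direction, 372 lost the threshold and 273 gained it.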
